A study of Mus musculus with 12 samples.

Results

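The 47 genes described here copy DNA or divide the cell. They were taken by name, as 13 genes of S phase and 34 genes of mitosis and with earlier results of these data known, from the 55901 genes in a table of RNA sequencing values. The cells were cortical neurons taken from C57BL/6J mice within 24 h of birth and grown in culture, with 12 libraries in 3 groups of 4. Control cultures were not injured, Trauma cultures were scratched with a needle and collected 24 h later, and Tra_TGF cultures received 10 ng/ml TGF-β1 during the same 24 h after the scratch. Every group had received arabinosylcytosine (5 μmol, as the labels give it), an inhibitor of DNA synthesis, for 24 h from day 1 to hold back glia, and experiments fell between day 8 and day 10. No source says whether the 4 libraries of a group came from separate cultures or animals, so the p-values below measure only the spread between these libraries.

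In dividing cells, the Mcm2 to Mcm7 proteins form the ring that opens the DNA helix, Pcna is the sliding clamp of the polymerases, and ribonucleotide reductase (Rrm1, Rrm2) and thymidylate synthase (Tyms) supply the DNA building blocks. E2f1 and the E-type cyclins drive entry into S phase. Later, Cdk1 with its cyclins, the Aurora and Polo kinases, kinesins and kinetochore proteins build the spindle and separate the chromosomes, and Cdc20 and Ube2c act in the ubiquitination that ends mitosis. Mature neurons do not divide, whereas glia, glial precursors and progenitors in the same dish can. RNA of a whole culture cannot tell more dividing cells from more of these transcripts per cell.

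Genes of both kinds are switched in the cell cycle through short promoter words. E2F factors bind words such as TTTCCCGC, TTTGGCGC and TTTCGCGC in many S phase promoters, and the cell cycle genes homology region (CHR), TTTGAA, together with CCAAT boxes, is typical of mitotic promoters. RefSeq promoters of GRCm38.p6, from 250 bases before to 50 bases after each start, were found for 39 of the 47 genes and searched on both strands. The TTTGAA word was present in 25 of 30 mitosis promoters (83.3%) and in 1 of 12 S phase promoters (8.33%), against 17.9% of all 32851 promoters. The E2F words were present in 4 of 12 S phase promoters (33.3%) and 1 of 30 mitosis promoters (3.33%), against 1.84% of all promoters. CCAAT was present in 25 of 30 mitosis promoters (83.3%) and 9 of 12 S phase promoters (75.0%), against 37.4% of all promoters. E2F words on opposite strands can overlap each other. A match is a string of letters, not a measured binding site, and no match says only that the word is not in this window.

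**Figure D1:**
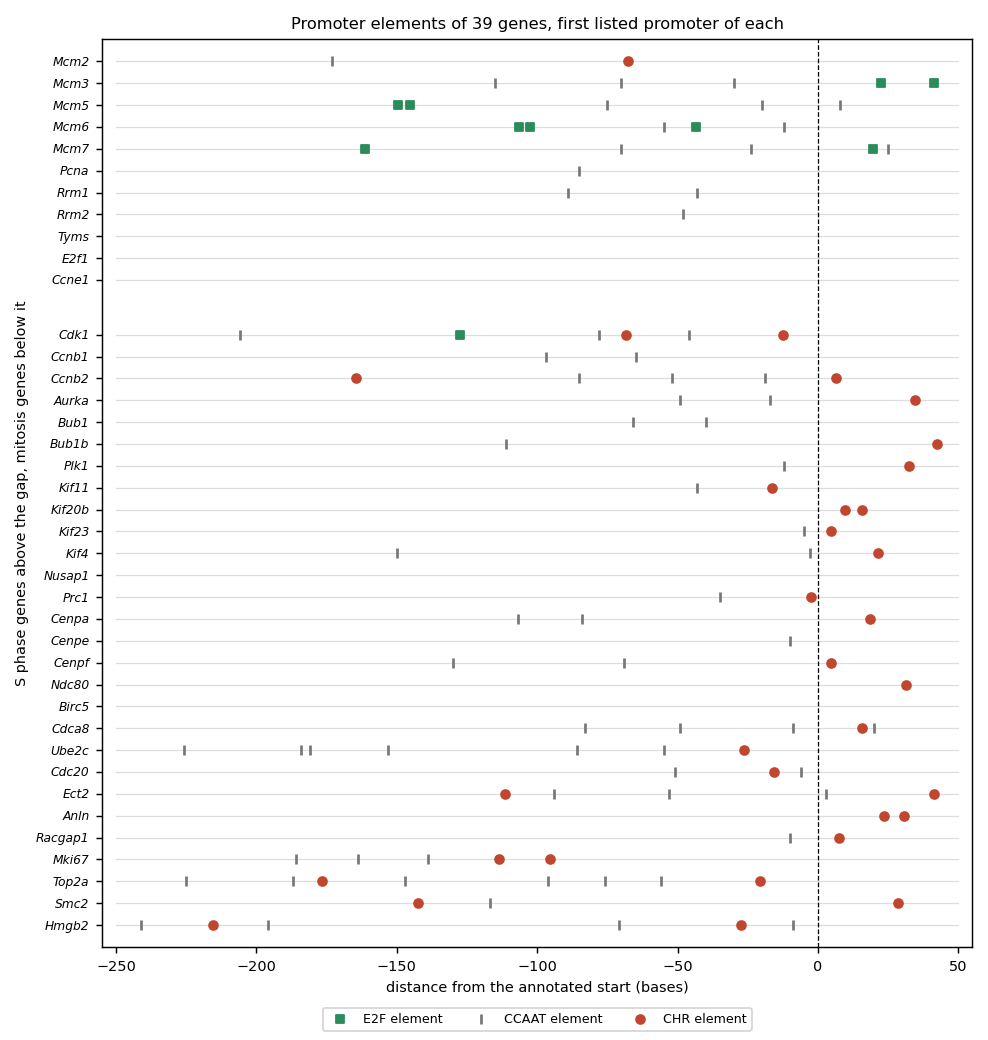
Positions of the promoter words in the first listed RefSeq promoter of 39 genes, as distance in bases from the annotated start (dashed line), one row per gene. TTTGAA words (CHR, red circles) occur in most mitosis rows and in 1 S phase row, Mcm2, while E2F words (green squares) occur in Mcm3, Mcm5, Mcm6, Mcm7 and Cdk1.

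Promoters are printed for the genes that were higher than Control in both scratched groups under each alternative in which they were tested, since these carry the clearest differences below. They give the 150 bases before the start, 5′ to 3′ on the gene's strand, with E2F, CCAAT and TTTGAA words or their reverse complements in capitals. RefSeq starts can differ from the gene ends given in the files, and the Cdk1 stretch reaches into the gene as the files place it. For Ccna2, which met the same condition, no promoter was listed.
Mcm3, chr1:20820313-20820462, minus strand: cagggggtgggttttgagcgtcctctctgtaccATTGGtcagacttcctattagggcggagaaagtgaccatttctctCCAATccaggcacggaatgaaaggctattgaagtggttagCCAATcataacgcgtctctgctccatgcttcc
Mcm5, chr8:75109359-75109508, plus strand: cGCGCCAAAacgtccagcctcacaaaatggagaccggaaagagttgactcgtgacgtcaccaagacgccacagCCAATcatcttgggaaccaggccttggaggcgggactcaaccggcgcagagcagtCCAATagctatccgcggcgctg
Cdk1, chr10:69352913-69353062, minus strand: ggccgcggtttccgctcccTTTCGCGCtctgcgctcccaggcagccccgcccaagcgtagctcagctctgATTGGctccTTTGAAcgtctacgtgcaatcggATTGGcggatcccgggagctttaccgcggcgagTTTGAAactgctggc
Mki67, chr7:135716380-135716529, minus strand: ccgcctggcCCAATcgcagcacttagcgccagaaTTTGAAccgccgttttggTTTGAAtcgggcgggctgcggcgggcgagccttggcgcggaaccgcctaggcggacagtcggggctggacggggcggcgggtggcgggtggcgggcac
Top2a, chr11:99024190-99024339, minus strand: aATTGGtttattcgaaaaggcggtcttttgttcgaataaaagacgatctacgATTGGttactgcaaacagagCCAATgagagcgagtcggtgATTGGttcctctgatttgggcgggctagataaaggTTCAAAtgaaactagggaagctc
Hmgb2, chr8:57511693-57511842, plus strand: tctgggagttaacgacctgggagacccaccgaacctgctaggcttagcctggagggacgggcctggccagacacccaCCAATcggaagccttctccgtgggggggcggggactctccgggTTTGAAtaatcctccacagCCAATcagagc

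The Mcm3 stretch holds 3 CCAAT words and no E2F word, its E2F words lying after the start. That of Mcm5 holds 1 E2F word whole and 2 CCAAT words. In the mitosis genes, the stretches of Cdk1 and Mki67 hold 2 TTTGAA words each and those of Top2a and Hmgb2 hold 1 each. Cdk1 also has 1 E2F word, the only one among the mitosis promoters searched.

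Values are FPKM, reads scaled to exon length and library depth, which allow levels of different genes to be compared. FPKM times gene length gave whole reads, so that between 15052486 and 17381671 reads on genes could be counted per library. The 47 genes had between 0 and 934 reads each per library. The median over genes of the mean FPKM was 3.37 for the S phase genes and 0.717 for the mitosis genes, against 5.15 for the 15016 genes tested. Mitosis genes were also longer, with a median exon length of 5194 bases against 3865. Genes with a mean of at least 0.5 FPKM were compared with limma on log2(FPKM + 0.1), and a gene was called where the p, adjusted by Benjamini-Hochberg over these genes, did not exceed 0.05. Log2 differences are given as the difference ± its standard error, and levels as mean ± SD of 4 libraries. This left out 15 members (Tyms and 14 mitosis genes), so that all 47 were also compared with voom of limma on the recovered reads, over 17659 genes with a mean of at least 5 reads. A gene low in Control passes such a filter only through its level in the scratched groups, so the counts below describe these genes and are not evidence for the list as a whole.

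Control replicate 1 stood apart from the other Control libraries over all genes. On the second principal component it lay at 59 against 4.2 to 9 for the others, and it had reads on 22124 genes, the fewest of the 12. For the S phase genes its summed level lay within the range of the other Control libraries, and so did its sum over the mitosis genes. Counts are given with and without it.

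Trauma libraries held more RNA of both lists than Control libraries, and the mitosis genes differed more in proportion. In RPM, reads scaled to the total on genes in a library, the S phase genes summed to 177 to 189 in Control and 219 to 250 in Trauma. The mitosis genes summed to 105 to 120 RPM in Control and 156 to 200.9 in Trauma. In both lists the groups did not overlap, Trauma replicate 1 was the lowest Trauma library and Trauma replicate 4 the highest. In Tra_TGF the sums were 212 to 216 RPM for S phase, below each Trauma library, and 177 to 184 for mitosis, inside the Trauma range. Abundant genes such as Pcna weigh most in these sums. The median log2 difference of the S phase genes from the Control mean was also taken per library. It lay at 0.218 to 0.52 in Trauma and 0.193 to 0.434 in Tra_TGF, so by this median the scratched groups overlapped. These sums and medians were given no test.

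**Figure D2:**
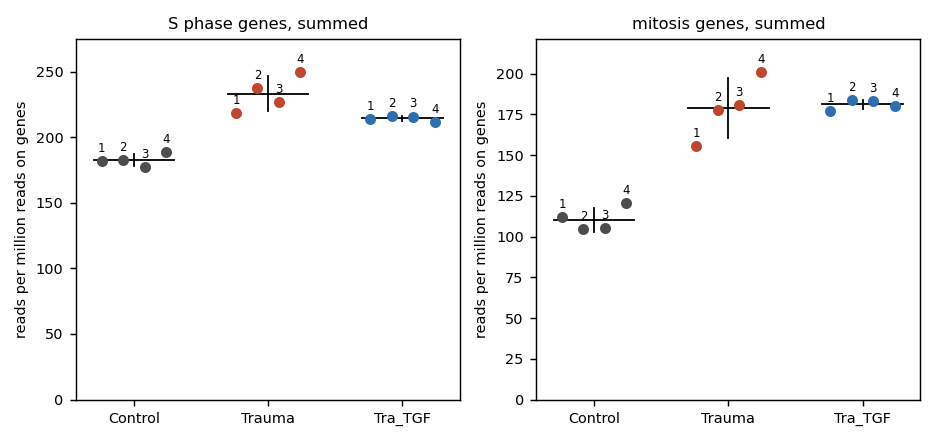
Summed reads of the 13 S phase genes (left) and the 34 mitosis genes (right) in RPM, 1 point per library with its replicate number, with lines for the mean and SD of each group of 4. Control libraries lie below all scratched libraries in both panels, and Tra_TGF libraries lie below Trauma libraries for S phase but between Trauma replicates 1 and 4 for mitosis.

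Of the 12 S phase genes tested with limma, 8 rose in Trauma against Control and 0 fell, and of 20 mitosis genes 8 rose and 0 fell, where 3.30% of all genes rose and 2.70% fell. At an unadjusted p under 0.05, 1 S phase gene (E2f1) and 0 mitosis genes were lower, on the FPKM scale and on reads, beside 10.5% and 9.75% of all genes. On recovered reads, voom called 8 of 13 S phase genes and 15 of 34 mitosis genes higher and 0 of either lower, beside 3.94% of all genes higher and 2.94% lower. Without Control replicate 1, limma called 8 S phase and 6 mitosis genes higher and E2f1 lower, and voom called 7 and 14 higher and 0 lower. Limma then lost Cdc20, Smc2 and Foxm1 and gained Prc1, and voom lost Mcm7 and Kif4. Groups did not overlap for 27 of the 47 genes, higher in Trauma, and for 1 (E2f1), lower, against 6.44% and 5.89% of the 17659 genes. The median log2 difference was 0.33 over the S phase genes and 0.62 over the mitosis genes on the FPKM scale, 0.33 and 0.87 on reads, and -0.01 over all genes tested. At a pseudocount of 1 the mitosis median was 0.235 and the S phase median 0.312, so the order of the lists was reversed. The limma count of 16 fell to 9 without Trauma replicate 4 and to 10 without Control replicate 3, Trauma replicate 2 or Trauma replicate 3, and a fit of these 2 groups alone called 9.

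**Figure D3:**
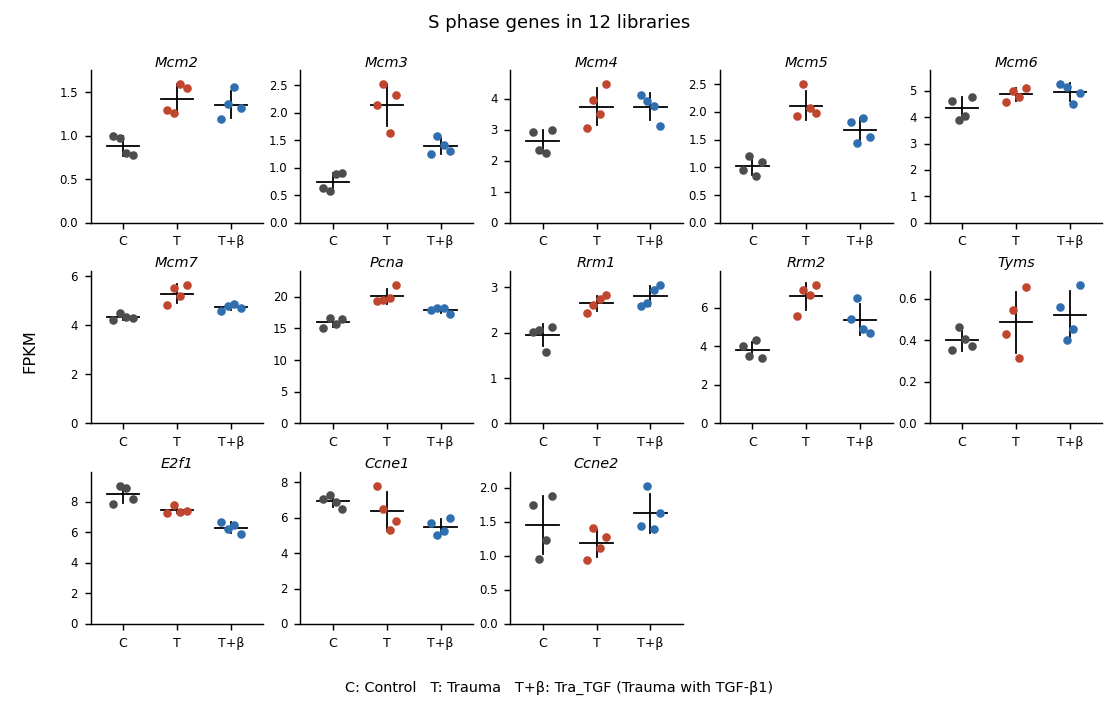
FPKM of the 13 S phase genes in each library, with 4 points per group (C: Control, T: Trauma, T+β: Tra_TGF) and lines for the mean and SD. Mcm2 to Mcm5, Mcm7, Pcna, Rrm1 and Rrm2 lie higher in Trauma than in Control without overlap, whereas E2f1 is highest in Control and lowest in Tra_TGF without overlap.

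The helicase subunits rose in Trauma with the exception of Mcm6, which was not called, and by unequal amounts. Mcm3 (chromosome 1, 20802968 to 20820312, minus strand, GRCm38) had 0.641, 0.58, 0.881 and 0.899 FPKM in Control, 2.14, 2.52, 1.63 and 2.32 in Trauma and 1.26, 1.59, 1.42 and 1.3 in Tra_TGF, in replicate order. Each Trauma library lay above each Tra_TGF library, and each Tra_TGF library above each Control library. The log2 difference of Trauma from Control was 1.41 ± 0.17 (adjusted p 5.70e-04), and the ratio of means was 2.87. Mcm5 (chromosome 8, 75109569 to 75128439, plus strand) had 0.944, 1.21, 0.844 and 1.09 FPKM in Control, 1.92, 2.5, 2.07 and 1.97 in Trauma and 1.81, 1.44, 1.89 and 1.55 in Tra_TGF. It showed the same order of groups without overlap, and the Trauma difference was 0.98 ± 0.14 (adjusted p 0.0015). Mcm2 rose from 0.888 ± 0.115 to 1.43 ± 0.17 FPKM (log2 0.63 ± 0.14, adjusted p 0.0192). Mcm4 was at 2.63 ± 0.376 FPKM in Control and 3.74 ± 0.604 in Trauma (log2 0.49 ± 0.13, adjusted p 0.050), on the threshold itself.

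Mcm6 and Mcm7, the most abundant subunits in Control, differed least. Mcm7 rose from 4.35 ± 0.116 to 5.3 ± 0.373 FPKM (log2 0.28 ± 0.06, adjusted p 0.0149). Its gene overlaps Cops6 and Ap4m1 on the opposite strand, and the counting is not stated to use strand, so that reads of these genes could not be told apart. Mcm6 had 4.33 ± 0.431 FPKM in Control and 4.86 ± 0.239 in Trauma (log2 0.17 ± 0.08, adjusted p 0.251), and its groups overlapped. The FPKM of the 6 subunits thus spanned 0.750 to 4.35 in Control and 1.43 to 5.30 in Trauma.

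Pcna was the most abundant member. It had 15, 16.7, 15.8 and 16.5 FPKM in Control, 19.4, 19.4, 19.7 and 21.9 in Trauma and 17.9, 18.2, 18.3 and 17.2 in Tra_TGF (chromosome 2, 132249162 to 132253314, minus strand). Trauma replicate 4 was the highest library, and Trauma lay above Control without overlap, with a log2 difference of 0.33 ± 0.05 (adjusted p 0.0023). Rrm2, the small subunit of ribonucleotide reductase, whose RNA follows S phase, had 4.01, 3.5, 4.32 and 3.4 FPKM in Control, 5.59, 6.93, 6.7 and 7.2 in Trauma and 5.42, 6.52, 4.93 and 4.69 in Tra_TGF (chromosome 12, 24708241 to 24714146, plus strand). Each scratched library exceeded each Control library, and the Trauma difference was 0.78 ± 0.12 (adjusted p 0.0022). Rrm1, the large subunit, rose from 1.95 ± 0.249 to 2.65 ± 0.164 FPKM (log2 0.43 ± 0.10, adjusted p 0.027). Tyms lay under the filter, with 0.399 ± 0.0487 FPKM in Control, 0.487 ± 0.147 in Trauma and 0.521 ± 0.118 in Tra_TGF, and voom did not call it (log2 0.23 ± 0.25, voom adjusted p 0.664).

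The 3 regulators of the G1/S step were not called in Trauma against Control, though E2f1 was called under some alternatives. E2f1, the transcription factor, had 7.83, 9.06, 8.87 and 8.19 FPKM in Control, 7.29, 7.78, 7.35 and 7.4 in Trauma and 6.68, 6.22, 6.46 and 5.86 in Tra_TGF (chromosome 2, 154559407 to 154569892, minus strand). The 3 groups did not overlap, and Trauma lay below Control by a difference that was not called (-0.18 ± 0.06, adjusted p 0.095). E2f1 was called lower after a gene length correction (-0.22, adjusted p 0.0294), after a GC correction (-0.22, adjusted p 0.0136) and without Control replicate 1 (-0.22, adjusted p 0.0478). Cyclin E1, which activates Cdk2 at S phase entry, had 6.93 ± 0.318 FPKM in Control and 6.35 ± 1.08 in Trauma, with Trauma libraries from 5.31 to 7.81, and was not called. Cyclin E2 had 1.46 ± 0.43 and 1.18 ± 0.203 FPKM and was not called either. Ccne2 overlaps Ints8 on the opposite strand.

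Leaving out 1 library at a time ended some of these calls. In Trauma against Control, Mcm3, Mcm5, Pcna and Rrm2 were called in each of the 12 such fits. Mcm2 was lost without Control replicate 3 or 4 or Trauma replicate 3 or 4, with adjusted p from 0.0509 to 0.0682. Mcm7 was lost without Trauma replicate 2 or 4 (0.0508 to 0.0535), and Rrm1 without Control replicate 3 or Trauma replicate 2, 3 or 4 (0.0509 to 0.0874). Mcm4 was kept in 3 of 12 fits, those without Control replicate 1, Trauma replicate 1 and Tra_TGF replicate 4, with adjusted p up to 0.149 in the others. The log2 difference stayed positive for all 8 genes. Mcm4 was also lost at both other pseudocounts, without a filter on low values, after quantile normalization or a gene length correction and with a replicate block. Over all alternatives it was kept in 10 of 28. Rrm1 was also lost without the filter, and Mcm2, Mcm4, Mcm7 and Rrm1 in a fit of Trauma and Control alone.

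**Figure D4:**
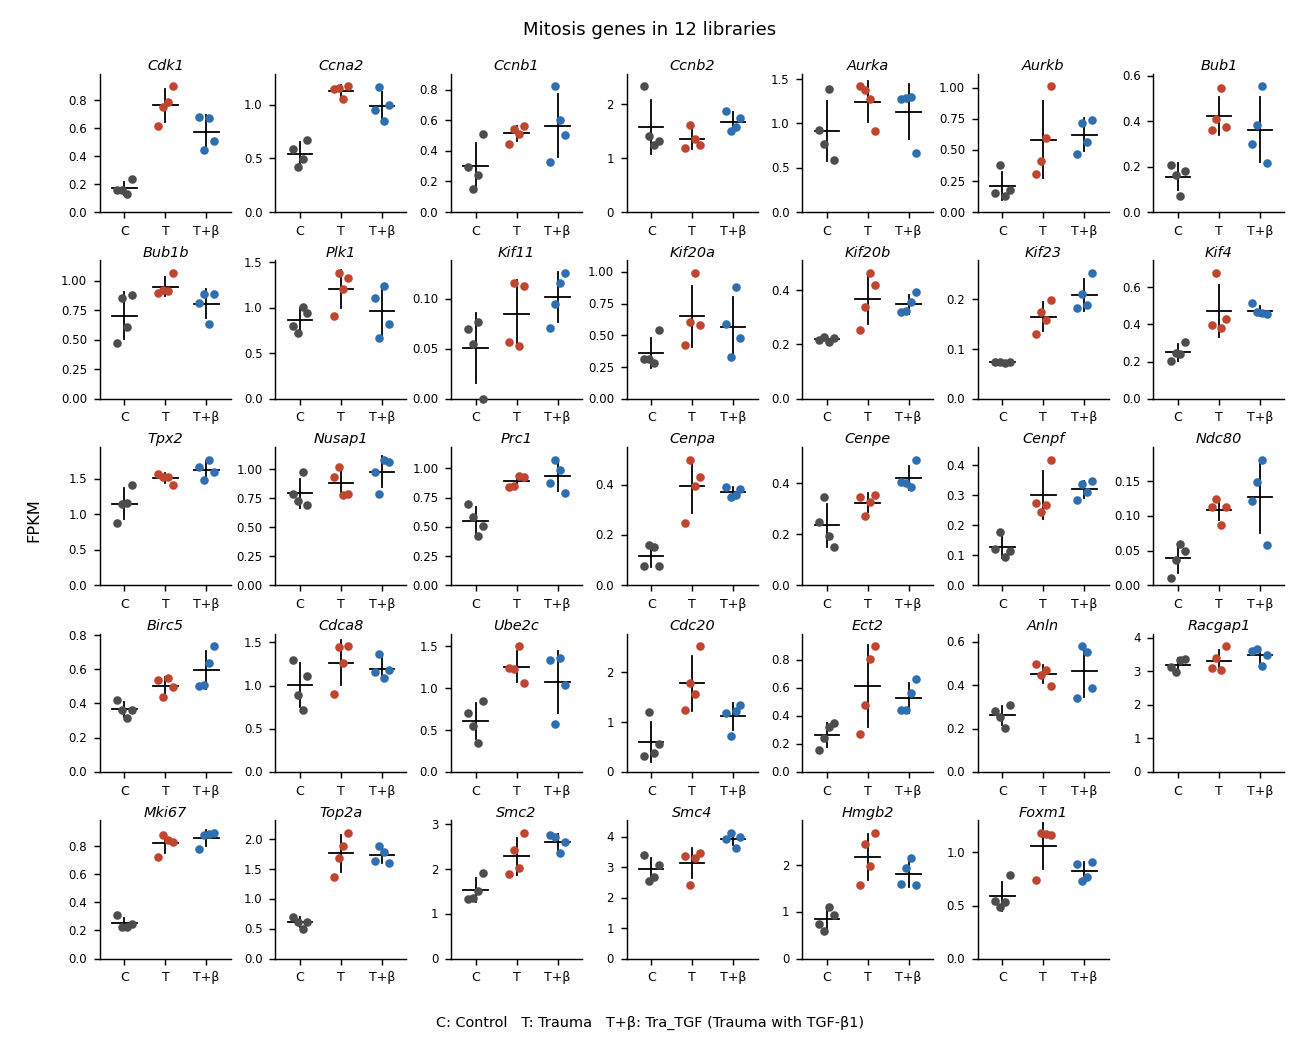
FPKM of the 34 mitosis genes in each library, with 4 points per group (C: Control, T: Trauma, T+β: Tra_TGF) and lines for the mean and SD; each panel has its own scale from 0. Cdk1, Ccna2, Mki67 and Top2a lie higher in both scratched groups than in Control without overlap, while Ccnb2, Nusap1 and Racgap1 overlap in all 3 groups.

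Among the mitosis genes, the largest proportional difference was in Cdk1, the kinase that starts mitosis. Cdk1 (chromosome 10, 69335146 to 69352938, minus strand) had 0.158, 0.155, 0.129 and 0.237 FPKM in Control, 0.616, 0.755, 0.791 and 0.90 in Trauma and 0.679, 0.442, 0.676 and 0.506 in Tra_TGF. Its mean of 0.504 FPKM lay just over the filter, and these values rest on 10 to 18 reads per library in Control and 50 to 79 in Trauma. The groups did not overlap, the ratio of means was 4.51, and the log2 difference was 1.69 ± 0.27 (adjusted p 0.0031) on the FPKM scale and 2.16 ± 0.31 (voom adjusted p 7.65e-05) on reads. Cyclin A2, which works with Cdk1 and Cdk2 in S and G2 phase, had 0.589, 0.418, 0.498 and 0.667 FPKM in Control, 1.15, 1.15, 1.05 and 1.17 in Trauma and 0.949, 1.16, 0.847 and 0.994 in Tra_TGF (chromosome 3, 36564865 to 36572150, minus strand). It rose without overlap (log2 0.95 ± 0.17, adjusted p 0.0063), and its gene overlaps Exosc9 on the opposite strand.

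The B-type cyclins, which switch Cdk1 on for mitosis, were not called. Ccnb1 had 0.299 ± 0.151 FPKM in Control and 0.515 ± 0.050 in Trauma and was not called on reads (log2 0.91 ± 0.34, voom adjusted p 0.12). Ccnb2 had 1.58 ± 0.509 FPKM in Control, where replicate 1 reached 2.33, and 1.35 ± 0.185 in Trauma (log2 -0.17 ± 0.18, adjusted p 0.664). Both have processed copies in the genome, and Ccnb2-ps held a mean of 64.3 reads per library, so the split of reads between gene and copy is uncertain.

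Among the 5 genes of chromosome structure, Mki67, Top2a and Hmgb2 rose in Trauma without overlap with Control. Mki67, the protein coat of mitotic chromosomes and a standard marker of dividing cells, had 0.31, 0.222, 0.228 and 0.245 FPKM in Control, 0.725, 0.877, 0.843 and 0.832 in Trauma and 0.776, 0.879, 0.884 and 0.894 in Tra_TGF (chromosome 7, 135689784 to 135716361, minus strand). Each scratched library lay above each Control library. The Trauma difference was 1.39 ± 0.19 (adjusted p 0.0013), and on reads it was 1.71 ± 0.18 (voom adjusted p 1.14e-06). Top2a, the topoisomerase that untangles sister chromatids, had 0.70, 0.613, 0.501 and 0.619 FPKM in Control, 1.38, 1.68, 1.9 and 2.11 in Trauma and 1.64, 1.89, 1.78 and 1.61 in Tra_TGF (chromosome 11, 98992943 to 99024189, minus strand). It rose without overlap by 1.39 ± 0.15 (adjusted p 2.11e-04) in Trauma. Hmgb2, a chromatin protein of proliferating cells, had 0.736, 0.588, 1.1 and 0.929 FPKM in Control, 1.58, 2.46, 1.98 and 2.69 in Trauma and 1.6, 1.94, 2.16 and 1.58 in Tra_TGF (chromosome 8, 57511907 to 57515999, plus strand), and its Trauma difference was 1.28 ± 0.20 (adjusted p 0.0032).

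The condensin subunits differed from each other. Smc2 rose from 1.53 ± 0.27 to 2.29 ± 0.418 FPKM (log2 0.55 ± 0.14, adjusted p 0.0408), although the highest Control library (1.92) exceeded the lowest Trauma library (1.89). Its partner Smc4 had 2.92 ± 0.38 and 3.13 ± 0.484 FPKM and was not called (log2 0.09 ± 0.12, adjusted p 0.74). Foxm1, the transcription factor of many mitotic genes, rose from 0.588 ± 0.136 to 1.06 ± 0.217 FPKM (log2 0.76 ± 0.20, adjusted p 0.0467), with Trauma replicate 1 inside the Control range. Cdc20, the activator of the anaphase-promoting complex, rose from 0.61 ± 0.404 to 1.78 ± 0.547 FPKM (log2 1.51 ± 0.34, adjusted p 0.0231), and its gene overlaps Elovl1. Ube2c, a ubiquitin-conjugating enzyme of the same step, did not pass on the FPKM scale (log2 0.99 ± 0.29, adjusted p 0.0678) but was called on reads (log2 1.1 ± 0.31, voom adjusted p 0.0303).

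Cdk1, Ccna2, Mki67, Top2a and Hmgb2 were called in each of the 12 fits that left out 1 library. Cdc20 was kept in 6, and lost without Control replicate 1, 3 or 4 or Trauma replicate 2, 3 or 4 (adjusted p 0.0509 to 0.0796). Smc2 was kept in 2, those without Control replicate 4 and Trauma replicate 1, with adjusted p from 0.0519 to 0.119 in the others. Foxm1 was kept in the same 2 fits, with adjusted p from 0.0594 to 0.133 in the others. Cdc20, Smc2 and Foxm1 were also lost without a filter on low values and in a fit of Trauma and Control alone. Smc2 and Foxm1 were lost after quantile normalization, and Foxm1 with a replicate block.

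Most kinetochore genes and kinesins lay under the FPKM filter and are given on reads. The centromeric histone Cenpa had 0.249 to 0.499 FPKM in Trauma and 0.0775 to 0.161 in Control (log2 1.74 ± 0.36, voom adjusted p 0.0035), and the kinetochore protein Cenpf rose by 1.23 ± 0.24 (voom adjusted p 0.0025). The checkpoint kinase Bub1 rose by 1.48 ± 0.39 (voom adjusted p 0.022), from 0.156 ± 0.0584 to 0.423 ± 0.0841 FPKM. The remaining centromere and kinetochore members, Cenpe, Ndc80, Birc5 and Cdca8, were not called in Trauma, with log2 differences from 0.36 to 1.55 on reads. Ndc80 was the largest of these and the least precise (log2 1.55 ± 0.55, voom adjusted p 0.10).

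Of the 5 kinesins, motor proteins of the spindle and midzone, Kif4 was called in Trauma (log2 0.88 ± 0.27, voom adjusted p 0.0496), and its gene overlaps Pdzd11. Kif23, which bundles microtubules for cytokinesis, was at 0.074, 0.0744, 0.0725 and 0.0739 FPKM in Control and 0.131, 0.174, 0.158 and 0.199 in Trauma. The groups did not overlap, yet the adjusted p was over the threshold (log2 1.11 ± 0.34, voom adjusted p 0.055). Kif11, Kif20a and Kif20b were not called, with log2 differences of 1.23, 0.83 and 0.71 on reads. Kif11 had 0 reads in Control replicate 4, which allows up to 0.0261 FPKM at a floor of 3 reads, and 7 to 15 reads in Trauma libraries. Kif20a overlaps Cdc23, which had 1012 reads per library on average against 37.7 for Kif20a.

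Prc1, which crosslinks the spindle midzone, was called on reads (log2 0.70 ± 0.16, voom adjusted p 0.0093) and not on the FPKM scale (log2 0.61 ± 0.18, adjusted p 0.0662). It overlaps Rccd1. Tpx2, the Aurora A activator, and Nusap1 were not called in either fit, with 1.51 ± 0.0659 FPKM for Tpx2 in Trauma against 1.15 ± 0.22 in Control. The kinases Aurka, Aurkb, Plk1 and Bub1b were not called, with Aurkb between 0.309 and 1.01 FPKM in Trauma. Of the cytokinesis genes, the scaffold Anln was called on reads (log2 0.80 ± 0.22, voom adjusted p 0.0323), Ect2 was not (log2 1.12 ± 0.37, voom adjusted p 0.0738), and Racgap1, with Smc4 the most abundant mitosis member, was at 3.2 ± 0.186 FPKM in Control and 3.32 ± 0.326 in Trauma.

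**Figure D5:**
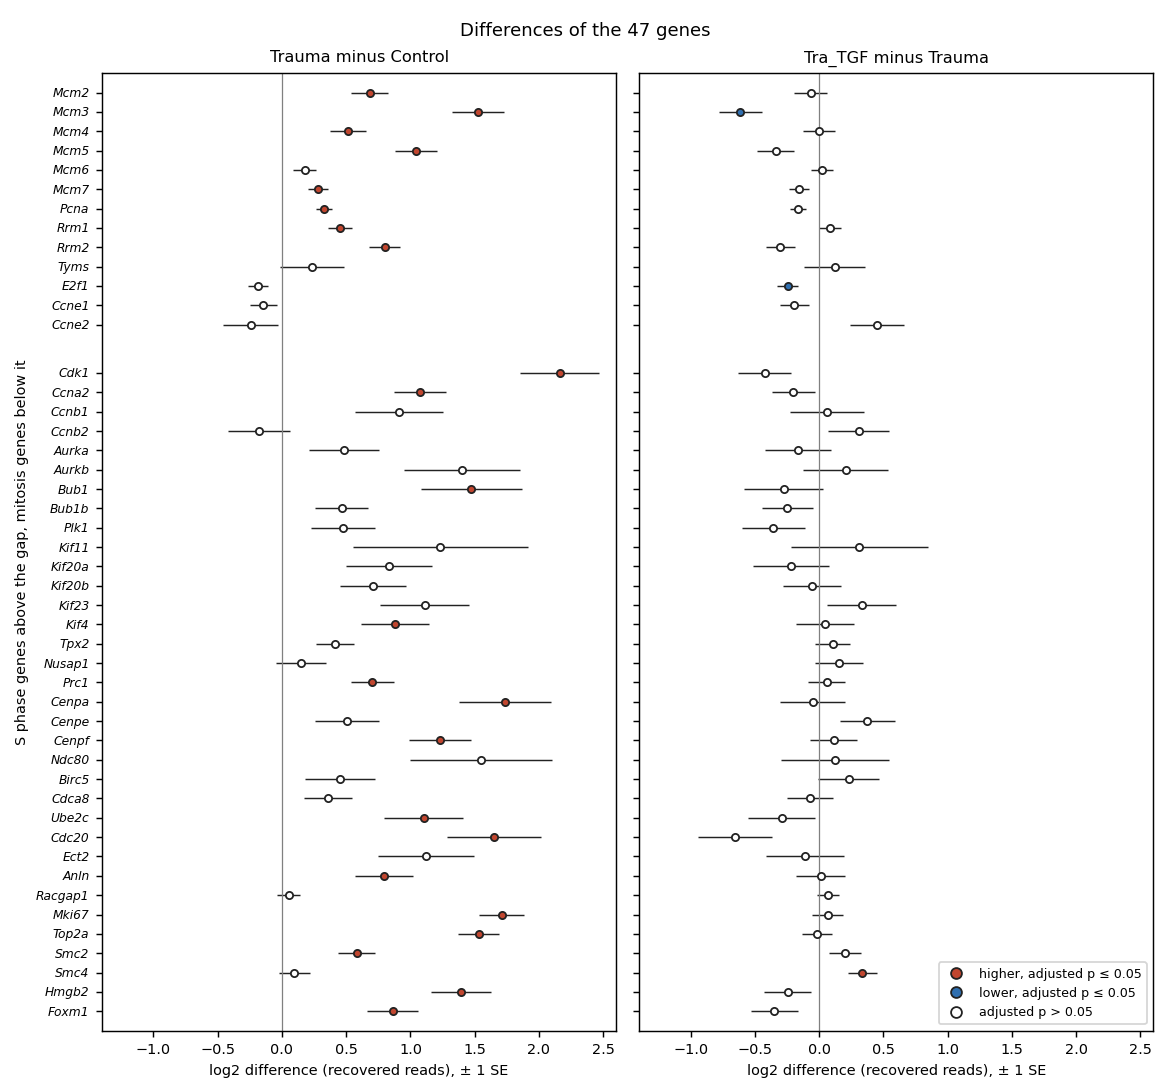
Log2 differences of the 47 genes on recovered reads (voom) with 1 SE on each side, for Trauma minus Control (left) and Tra_TGF minus Trauma (right); filled points have an adjusted p of at most 0.05. Of the points, 23 are called on the left, all to the right of 0, and 3 on the right, Mcm3 and E2f1 below 0 and Smc4 above it.

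Few of these genes differed between scratched cultures with and without TGF-β1, and those called on the FPKM scale were S phase genes. This comparison shares its Trauma libraries with the one above. In Tra_TGF against Trauma, limma called 3 S phase genes lower (Mcm3, Pcna and E2f1) and 0 higher, and 0 mitosis genes in either direction, beside 7.71% of all genes lower and 4.40% higher. At an unadjusted p under 0.05, limma had 6 S phase genes lower and 0 higher, and 1 mitosis gene (Smc4) higher and 0 lower, beside 16.2% of all genes lower and 13% higher. At that p, voom had 5 S phase genes lower and 1 higher (Ccne2), and 1 mitosis gene lower (Cdc20) and 1 higher (Smc4), beside 14.4% of all genes lower and 12.8% higher. On reads voom called 2 S phase genes lower (Mcm3 and E2f1) and 1 mitosis gene higher (Smc4), beside 7.86% of all genes lower and 5.94% higher. The same genes were called in both fits without Control replicate 1. Groups did not overlap for 5 genes lower in Tra_TGF (Mcm3, Mcm5, Pcna, E2f1 and Bub1b) and 2 higher (Cenpe and Smc4), against 10.6% and 9.21% of all genes. Over both lists, 3 of 32 tested genes were called lower, a share near that of all genes. The median log2 difference was -0.16 over the S phase genes and 0.02 over the mitosis genes, and the latter was not stable in sign. It was -0.044 after a gene length correction, -0.047 after a GC correction and -0.03 after quantile normalization. It was -0.03 without Trauma replicate 1, -0.01 without Tra_TGF replicate 2 and -0.02 without Tra_TGF replicate 3.

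Mcm3 fell by 0.58 on the log2 scale (SE 0.17, adjusted p 0.0448) and Mcm5, with 1.67 ± 0.21 FPKM in Tra_TGF against 2.11 ± 0.263 in Trauma, did not pass (log2 -0.32 ± 0.14, adjusted p 0.143). Mcm2, Mcm4 and Mcm6 had log2 differences of -0.06 ± 0.14, 0.01 ± 0.13 and 0.02 ± 0.08 (SE), and Mcm7 had -0.16 ± 0.06. Pcna fell by 0.17 (SE 0.05, adjusted p 0.0471) on the FPKM scale and was not called on reads (0.0784). E2f1 fell by 0.24 (SE 0.06, adjusted p 0.0238), from 7.45 ± 0.221 to 6.31 ± 0.352 FPKM. Rrm2 and Rrm1 were not called (log2 -0.29 ± 0.12, adjusted p 0.113, and log2 0.08 ± 0.10, adjusted p 0.658).

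These few calls depended on single libraries and on the processing. Mcm3 was also lost without a filter on low values and after a gene length or a GC correction, Pcna without the filter, after quantile normalization, after a gene length correction and on reads, and E2f1 after a GC correction. E2f1 was lost without Trauma replicate 2 or 4 or Tra_TGF replicate 2 or 4 (adjusted p 0.0551 to 0.0708). Mcm3 was lost without Trauma replicate 1, 2 or 4 or any 1 Tra_TGF library (0.0695 to 0.121). Pcna was kept only without Control replicate 1 or 2 (0.0564 to 0.123 in the others). The limma count of 3 became 0 without Trauma replicate 2 or 4 or Tra_TGF replicate 2 or 4, and 1 without Trauma replicate 1 or Tra_TGF replicate 1 or 3.

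Among the mitosis genes with the largest Trauma differences, Mki67 and Top2a had similar means in both scratched groups. Mki67 had 0.82 ± 0.0658 FPKM in Trauma and 0.859 ± 0.055 in Tra_TGF, a log2 difference of 0.06 ± 0.19 (SE). Top2a had 1.76 ± 0.313 and 1.73 ± 0.132 FPKM, a log2 difference of -0.01 ± 0.15 (SE). Cdk1 and Cdc20 had lower means (log2 -0.36 ± 0.27 and -0.61 ± 0.34), which did not pass (adjusted p 0.4 and 0.264). Smc4 was at 3.36, 2.41, 3.29 and 3.45 FPKM in Trauma and 3.92, 4.12, 3.63 and 3.99 in Tra_TGF. The groups did not overlap, the adjusted p was 0.0909 on the FPKM scale, and on reads the log2 difference was 0.34 ± 0.11 (voom adjusted p 0.0469).

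Against Control, the Tra_TGF group was higher in genes of both lists and lower in 2 of the 3 G1/S regulators. This comparison shares its Control libraries with the first. Limma called 7 S phase genes higher (Mcm2 to Mcm5, Pcna, Rrm1 and Rrm2) and 2 lower (E2f1 and Ccne1), and 9 mitosis genes higher and 0 lower, beside 6.14% of all genes higher and 10.4% lower. At an unadjusted p under 0.05, 0 mitosis genes were lower in limma or voom, beside 18.3% and 15.8% of all genes. On reads voom called 6 S phase and 18 mitosis genes higher, and E2f1 and Ccne1 lower, beside 7.26% higher and 9.51% lower of all genes. Without Control replicate 1, limma called 6 and 9 higher and E2f1 lower, and voom called 6 and 16 higher and the same 2 lower. Limma then lost Pcna and Ccne1, and voom lost Tpx2 and Ndc80. Groups did not overlap for 28 genes higher in Tra_TGF and 2 lower, against 7.94% and 9.16% of all genes. The median log2 difference was 0.30 over the S phase genes, 0.68 over the mitosis genes and -0.01 over all genes. At a pseudocount of 1 these medians were 0.16 for S phase and 0.231 for mitosis, and without Tra_TGF replicate 4 that of S phase was 0.194.

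The log2 difference of Tra_TGF from Control was 1.45 ± 0.19 (adjusted p 5.96e-04) for Mki67, 1.37 ± 0.15 (adjusted p 1.67e-04) for Top2a and 1.32 ± 0.27 (adjusted p 0.0067) for Cdk1. Smc2 and Smc4 both rose here, Smc2 by 0.74 ± 0.14 (adjusted p 0.0048) and Smc4 by 0.42 ± 0.12 (adjusted p 0.0323). The spindle proteins Tpx2 and Prc1 were called in this comparison (log2 0.48 ± 0.13, adjusted p 0.0276, and log2 0.67 ± 0.18, adjusted p 0.0246). On reads, Aurkb, Bub1, Kif23, Kif4, Cenpa, Cenpe, Cenpf, Ndc80 and Anln were called besides, Cenpa with 1.69 ± 0.36 (voom adjusted p 0.0025) and Kif23 with 1.44 ± 0.34 (voom adjusted p 0.0049). E2f1 was lower, with a difference of -0.42 ± 0.06 (adjusted p 8.55e-04), and so was Ccne1, with -0.33 ± 0.10 (adjusted p 0.043), from 7.03, 7.27, 6.91 and 6.51 FPKM in Control to 5.67, 5.03, 5.25 and 5.98 in Tra_TGF, without overlap. Ccne2 was not called, with 1.63 ± 0.29 FPKM in Tra_TGF (log2 0.18 ± 0.21, adjusted p 0.597). Whether a gene called in 1 scratched group and not in the other differs between them was tested only by the Tra_TGF against Trauma values above.

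Leaving out 1 library kept Mcm2, Mcm3, Mcm5, Rrm1, Rrm2, E2f1, Cdk1, Ccna2, Mki67, Top2a, Smc2 and Hmgb2 in each of the 12 fits. Mcm4 was lost without Control replicate 2 or 3 or Tra_TGF replicate 1 or 2 (adjusted p 0.0647 to 0.0747), Prc1 without Control replicate 3 or 4 or Tra_TGF replicate 2 or 3 (0.0522 to 0.0766), and Tpx2 without Control replicate 2 or 3 or Tra_TGF replicate 1, 3 or 4 (0.0571 to 0.0648). Smc4 was lost without Control replicate 2, 3 or 4 or Tra_TGF replicate 1, 2 or 4 (0.0502 to 0.0943). Pcna was kept only without Control replicate 2 or Trauma replicate 4 (0.0507 to 0.0989 in the others), and Ccne1 only without Trauma replicate 1 or 3 (0.0506 to 0.116). Ccne1 was also lost without a filter on low values, after quantile normalization and after a gene length or a GC correction. Pcna was also lost without the filter, in a fit of 2 groups, after a GC correction and on reads (voom adjusted p 0.0969). Over all alternatives, Ccne1 was kept in 12 of 28 and Pcna in 10 of 28. The count of 18 fell to 12 without Control replicate 3.

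Further genes of the same processes were read from lists of 62 replication and 62 mitosis genes that are not among the 47. In Trauma, 3 of 46 replication genes tested with limma rose and 0 fell, and voom called 9 of 62 higher and 0 lower, beside the 3.30% and 3.94% of all genes that limma and voom called higher. Uhrf1, which maintains DNA methylation behind the replication fork, rose by 1.99 ± 0.22 (SE) on the log2 scale, from 0.339 ± 0.136 to 1.59 ± 0.166 FPKM (adjusted p 3.48e-04). Cdt1, the licensing factor that loads the Mcm ring, rose by 0.83 ± 0.19, and Gins4, a subunit of the active helicase, by 0.40 ± 0.10. Of 30 other mitosis genes tested, 5 rose and 0 fell, and voom called 13 of 60 higher and 0 lower. Pbk, a mitotic kinase, rose by 1.50 ± 0.23, Ckap2l by 1.24 ± 0.23 and Cdca3 by 1.03 ± 0.22.

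In Tra_TGF against Trauma, 2 other replication genes rose (Orc4 by 0.33 ± 0.09 and Orc3 by 0.27 ± 0.07, subunits of the origin recognition complex) and 0 fell in limma, with 3 higher and 1 lower in voom. Of the other mitosis genes, 1 of 30 rose in limma (Ckap5 by 0.24 ± 0.05) and 0 fell in either fit. The 2 of 46 replication genes and 1 of 30 mitosis genes were no larger a share than the 4.40% of all genes called higher. The voom counts of the replication genes were out of 62, and voom called 1 of 60 mitosis genes higher. In this comparison voom called 5.94% of all genes higher and 7.86% lower. Against Control, Tra_TGF had 3 replication genes higher (Uhrf1, Cdt1 and Rfc1) and 1 lower (Pold2, a polymerase subunit, which fell by 0.55 on the log2 scale), and 6 other mitosis genes higher and 0 lower, led by Pbk with 1.56 ± 0.23. In limma, the 3 of 46 replication genes called higher were near the 6.14% of all genes, and the 1 lower was under the 10.4% of all genes, whereas 6 of 30 mitosis genes were above the 6.14%. On reads, voom called 9 of 62 replication genes higher and 1 lower, and 18 of 60 mitosis genes higher and 0 lower. Of all genes, voom called 7.26% higher and 9.51% lower, so on reads the replication genes called higher were also above the share of all genes. Pbk, Ckap2l and Uhrf1 had Control means of 0.324, 0.486 and 0.339 FPKM, under the filter of 0.5 FPKM. Such genes were tested with limma only through their level in the scratched groups. The limma counts of these lists, here and for Trauma, are therefore not evidence for the lists as a whole.

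Summed levels of glial, progenitor and fibroblast and vascular markers were also higher in both scratched groups than in Control. The most abundant genes of a list weigh most in such sums. Neuronal markers were high in each library (summed FPKM of the 12 markers 1757 to 1825 in Control, 1574 to 1684 in Trauma and 1528 to 1581 in Tra_TGF). Tubb3, the most abundant of them, had means of 960, 842 and 739 FPKM in the same order. Of the 12, limma called 1 higher and 2 lower in Trauma, and 1 higher and 2 lower in Tra_TGF against Trauma. In Tra_TGF against Control it called 4 higher and 3 lower. The median log2 difference from Control was -0.02 in Trauma and 0.06 in Tra_TGF. Astrocyte markers summed to 362 to 418, 474 to 552 and 429 to 455 FPKM in Control, Trauma and Tra_TGF. Of the 12, 10 rose in Trauma while 5 fell and 1 rose in Tra_TGF against Trauma. Against Control, limma called 5 of 12 higher in Tra_TGF and 1 lower (Glul, log2 -0.43, adjusted p 6.30e-04). Gfap had a mean of 47.7 FPKM in Control and 97.1 in Tra_TGF, so the Tra_TGF sum does not describe the list as a whole. Neural progenitor markers summed to 220 to 253, 310 to 365 and 272 to 288 FPKM, with 3 of 11 tested higher in Trauma (Nes, Fabp7 and Vim, which astrocytes also express) and 4 lower in Tra_TGF against Trauma. Against Control, limma called 2 of 11 higher in Tra_TGF (Nes and Vim) and 1 lower (Dlx1, log2 -0.25, adjusted p 0.0299). The median log2 difference over the 12 listed was -0.14 there, against the direction of the sum. Microglia markers summed to 32.4 to 36.1, 44.6 to 52.0 and 40.3 to 45.3 FPKM, with 2 of 7 tested higher in Trauma (C1qa and C1qb), while Tmem119 and Trem2, which define microglia, had few reads. Tmem119 had 0 to 5 reads in Control, 0 to 4 in Trauma and 7 to 16 in Tra_TGF libraries, and Trem2 had 0 to 5, 2 to 21 and 6 to 28. Oligodendrocyte precursor markers summed to 47.85 to 49.95, 57.1 to 63.3 and 61.5 to 64.3 FPKM. Of 4 tested, 1 was higher in Trauma (Olig1), though the defining receptor Pdgfra stayed under 0.1 FPKM on average in each group. Against Control, limma called 2 of 4 higher in Tra_TGF (Olig1 and Tnr) and 1 lower (Olig2, log2 -0.2, adjusted p 0.0461). Voom called 2 higher and 0 lower there. Fibroblast and vascular markers summed to 4.67 to 5.38, 7.51 to 9.68 and 10.7 to 13.1 FPKM, with 1 of 4 tested higher in Trauma (Acta2) and the endothelial marker Cldn5 at 0 to 3 reads in each library. Acta2 alone had means of 1.38, 4.43 and 6.94 FPKM. The others tested with limma, Col1a1, Col3a1 and Pdgfrb, were not called in any comparison. On reads, voom called 4 of 9 higher and 0 lower in Tra_TGF against Control. The part of these cells in the differences of the S phase and mitosis genes was not tested.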

How the data were processed

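Polyadenylated RNA of cultured cortical neurons was sequenced in 12 libraries. Per the labels and the study's methods, the authors aligned reads with HISAT2 2.0.5 to mm10, counted them per gene with featureCounts and deposited FPKM for 55901 genes together with each gene's length. Strand use in counting is not given in the sources used here. The deposited FPKM, times length, were whole multiples of 1 step per library for 100% of genes (tolerance 0.02), which gave read counts of 15052486 to 17381671 per library. At that depth, the lowest of the genes described rest on few reads, down to 0, so that their differences are imprecise.

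From these values, limma 3.58.1 in R 4.3.3 with a mean-variance trend was fitted to log2(FPKM + 0.1) of all 12 libraries, over 15016 genes with a mean of at least 0.5 FPKM, with Benjamini-Hochberg adjustment over all of them. Voom was run on recovered counts with a mean of at least 5 reads, with and without Control replicate 1, as choices made after seeing the data. Samples were grouped by their labels. Alternatives were other pseudocounts, filters, normalizations, corrections for length and GC content, a replicate block, a fit of 2 groups and leaving out each library. Medians, sums and counts over a list were given no test. The fits were tested on simulated data.

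The members and the gene lists were chosen with earlier results of these data known. All 47 genes are named. From the lists of other replication and mitosis genes, up to 3 called genes per direction and comparison with the largest differences are named, and marker genes come from fixed lists. Promoters are those of RefSeq for GRCm38.p6.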

Additional observations from a re-analysis of the deposited data

Results flagged for a closer look

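Of 147 sets of 4 libraries tested with Dixon's ratio at its critical value, 9 held a library far from the other 3, and chance gives about 1 in 20. In Trauma, Pcna was high in replicate 4 at 21.9 FPKM (others 19.4 to 19.7), Kif4 was high in replicate 2 at 0.676 (others 0.380 to 0.428), Smc4 was low in replicate 2 at 2.41 (others 3.29 to 3.45), and Foxm1 was low in replicate 1 at 0.740 (others 1.16 to 1.19). In Control, Ccnb2 was high in replicate 1 at 2.33 FPKM (others 1.25 to 1.42), and Kif20a was high in replicate 4 at 0.538 (others 0.279 to 0.315). In Tra_TGF, Aurka was low in replicate 4 at 0.666 FPKM (others 1.27 to 1.29), Cenpe was high in replicate 4 at 0.493 (others 0.387 to 0.404), and Mki67 was low in replicate 1 at 0.777 (others 0.879 to 0.894).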

How the results depend on the processing

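No called gene changed direction under any alternative tried. In Trauma against Control, the count of 16 called genes became 9 in a fit of these 2 groups. It became 12 without a filter on low values and ranged from 9 to 16 as 1 library was left out. The median log2 difference of the mitosis genes there was 0.235 at a pseudocount of 1, 0.856 at 0.01, 0.871 with voom and 0.835 with voom without Control replicate 1. That of the S phase genes was 0.312 at a pseudocount of 1, above the mitosis median. In Tra_TGF against Trauma, the count of 3 became 1 without a filter on low values, 1 with a gene length correction, 1 with a GC correction and 0 to 3 as 1 library was left out. In Tra_TGF against Control, leaving out 1 library gave 12 to 17 calls and medians of 0.194 to 0.393 for S phase and 0.592 to 0.712 for mitosis genes. The S phase median was 0.16 at a pseudocount of 1. The mitosis median was 0.231 at a pseudocount of 1, 0.834 at 0.01, 0.555 after quantile normalization, 0.578 with a GC correction, 0.842 with voom and 0.84 with voom without Control replicate 1. Replicate numbers were not taken to pair the libraries in the main fit. Over 12 same-numbered pairs the correlation of deviations lay between -0.009 and 0.076, and over pairs with different numbers between -0.091 and 0.073. Whether libraries of the same number share a batch was not tested. With the number as a replicate block the counts were 14, 1 (E2f1, without Mcm3 and Pcna) and 15, and with the block and a length or a GC correction, Tra_TGF against Trauma gave 0. The block with a GC correction gave 11 calls for Tra_TGF against Control and a mitosis median of 0.578. The deposited FPKM already carried the size factors, so scaling them again changed nothing by construction. The causes of these changes were not tested. Most mitosis genes lie under 1 FPKM, where the pseudocount shrinks differences.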
